A study of Homo sapiens with 6 samples.

Results

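The genes described here are *CIITA*, the regulator of MHC class II expression, and 9 genes that encode class II chains, their loading proteins or subunits of the RFX promoter complex, measured by RNA-Seq in TC28a2 cells, an immortalized line of human chondrocytes, the cells of cartilage. These 10 members were taken by symbol from the deposited gene count table of 60623 genes: *CIITA*, *RFX5*, *RFXAP*, *HLA-DRA*, *HLA-DRB1*, *HLA-DPA1*, *HLA-DPB1*, *HLA-DMA*, *HLA-DMB* and *CD74*, each with 1 row. The cells received either DMSO, the solvent, or 2 μM mocetinostat, an inhibitor of class I histone deacetylases (HDACs), for 24 hours, with 3 samples per condition. All samples are the same unmodified line in culture, so the measurements describe a single cell line and no tissue.

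MHC class II molecules are pairs of an α and a β chain that display peptides from the endosomal route to CD4+ T cells. They are normally made by dendritic cells, macrophages and B cells, and many other cell types, chondrocytes included, make them after exposure to interferon-γ. CIITA is the master coactivator of these genes and binds no DNA itself. It docks on a complex formed by the RFX proteins, NF-Y and CREB on the X and Y boxes of class II promoters. In the endoplasmic reticulum the invariant chain (CD74) fills the groove of new molecules, and in the endosome HLA-DM exchanges its remnant for a peptide.

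Mocetinostat treatment was followed by higher levels of 5 members, namely *CIITA*, both HLA-DR chains and both HLA-DM chains, while the HLA-DP chains and the RFX subunits were not called in either direction. *HLA-DRA* and *HLA-DRB1* had 0 counts in every DMSO sample and were counted in every mocetinostat sample. *HLA-DMB* was 22.3-fold higher, *HLA-DMA* 5.32-fold higher and *CIITA* 4.23-fold higher. Genes were called upregulated (URGs) or downregulated (DRGs) at a Benjamini-Hochberg adjusted p-value under 0.05 in edgeR's quasi-likelihood test with an absolute log2 fold change above 1. Of the 10 members, 9 passed the filter on low counts, 5 of them were URGs and 0 were DRGs, whereas 20.2% of all 13966 genes tested were URGs and 8.18% were DRGs. For the 9 tested members the log2 fold changes had a median of 2.08, against -0.0021 for all genes tested. Since all 5 URGs passed the filter through their mocetinostat samples, the count and median of the 9 depend on the outcome. The fit without a filter held all 10 members, and the same 5 were URGs, against 7.9% of the 40504 genes with any count. These include the genes with too few counts to pass the filter, so 7.9% is a lower comparison than 20.2%. The median of the 10 was 1.68, against 0.25 for all genes. It lay between *CIITA* (1.84) and *CD74* (1.52, SE 1.47), a gene with few counts. With genes of at most 3 counts in every DMSO sample taken at their lower bounds, the median was 1.22. The well-counted genes named here had lower log2 fold changes in that fit, by a similar amount. *RFX5* had 0.02, against 0.27 with the filter, *JAK1* -0.02 against 0.23, and *GAPDH* -0.78 against -0.53. Calls gained or lost without a filter include this shift.

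Depth was unequal. The DMSO samples held 4873426 to 11031132 counts and the mocetinostat samples 1619344 to 5089542, so that 3 counts, taken as the detection floor, were worth 0.27 to 0.62 in DMSO and 0.59 to 1.86 in mocetinostat as CPM, the count scaled to the size of the library. The deepest library, DMSO replicate 1, had 0 counts of both HLA-DR chains, and the shallowest, mocetinostat replicate 2, had 20 and 21. The chondrocyte marker *SOX9*, a transcription factor of cartilage, was abundant in both conditions at 106 ± 13.6 and 180 ± 14.4 CPM (SD, n = 3). Among 16 markers of blood cells, 9 had at most 3 counts in every sample, and *CD3E* and *SPI1* had 0 in all 6. The summed level of the 16 was nevertheless 9.43 to 12.7 CPM in DMSO and 29.3 to 36.1 CPM in mocetinostat, with *ITGAX*, *CD14* and *BATF3*, 3 of the 4 that passed the filter, called as URGs, while the fourth, *CSF1R*, had -0.73 on the log2 scale (adjusted p = 0.141, edgeR). Without a filter *ITGAX*, *CD14* and *FLT3* were called and *BATF3* was not, and *PTPRC*, the pan-leukocyte marker, had 2, 9 and 0 counts in DMSO and 3, 2 and 0 in mocetinostat. Chondrocyte markers moved in the same direction, with 6 of 7 tested markers called as URGs, against 20.2% of all genes tested. Their summed level was 112 to 136 CPM in DMSO and 250 to 288 CPM in mocetinostat. Of 3 endothelial markers, 2 were also URGs (summed level 4.98 to 7.08 against 16.1 to 22.8 CPM). Several called markers, among them *SOX5*, *COMP*, *ITGAX*, *CD14*, *PECAM1* and *VWF*, passed the filter only through their mocetinostat samples. The marker counts therefore depend on the outcome. With at least 10 counts in every sample, 3 of 4 tested chondrocyte markers were URGs, against 1620 of 10876 genes. Of the blood and endothelial markers 0 were tested there. The part of these marker shifts in the class II results was not tested. Whether more cells expressed a gene or each cell held more of its RNA cannot be told apart in these bulk samples.

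The promoters were searched for the letters to which the class II complex is known to bind. Of the 10 members, 8 have an entry in the RefSeq promoter table used here (GRCh38.p14), and *CIITA* and *HLA-DRA* are not among them. Core words of 3 elements were searched on both strands of the 250 bases upstream of each start: ATTGG, the core of the Y box bound by NF-Y, GCAAC, the RFX site of the X box, and TGACG, the core of the X2 box bound by CREB. No word is part of another. The 150 bases upstream of the start are shown for the chains of HLA-DM, for *HLA-DRB1* as the URG with the ordered X and Y words, and for *HLA-DPB1* as a chain that was not called, with every match to these words on either strand in capitals. A match on the opposite strand appears as the reverse complement of its word.
HLA-DRB1, chr6:32589849-32589998, minus strand: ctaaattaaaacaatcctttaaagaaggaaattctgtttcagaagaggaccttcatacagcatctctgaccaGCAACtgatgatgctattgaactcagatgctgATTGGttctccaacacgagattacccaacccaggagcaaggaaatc
HLA-DMA, chr6:32953098-32953247, minus strand: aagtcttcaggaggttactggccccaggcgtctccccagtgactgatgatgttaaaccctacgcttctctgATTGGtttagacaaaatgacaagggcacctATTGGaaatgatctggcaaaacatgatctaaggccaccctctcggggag
HLA-DMB, chr6:32941029-32941178, minus strand: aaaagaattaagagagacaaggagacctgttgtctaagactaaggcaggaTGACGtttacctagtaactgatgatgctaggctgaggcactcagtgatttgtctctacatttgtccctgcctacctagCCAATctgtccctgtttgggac
HLA-DPB1, chr6:33075840-33075989, plus strand: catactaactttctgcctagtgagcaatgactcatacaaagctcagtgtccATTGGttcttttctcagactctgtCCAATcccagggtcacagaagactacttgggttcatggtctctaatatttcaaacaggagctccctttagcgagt

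In *HLA-DRB1*, GCAAC stood 78 bases before the start and was followed by ATTGG on the same strand after 27 bases. This ordered pair, with 15 to 45 bases between the words, was present in 0.911% of 35116 promoters, while ATTGG alone was present in 32.0%, GCAAC in 28.2% and TGACG in 21.2%. None of the other 7 members with an entry had the ordered pair. The search takes exact words only, so a missing word or pair does not show that a promoter lacks the element. Among the other class II genes it was found in *HLA-DRB5*, *HLA-DQA2* and *HLA-DOA*. Within the 150 bases shown, *HLA-DMA* had ATTGG 79 and 49 bases before the start, and *HLA-DMB* had TGACG 100 bases before it and ATTGG on the opposite strand 22 bases before it. In its 150 bases the uncalled *HLA-DPB1* had ATTGG 99 bases before the start and again on the opposite strand 75 bases before it. The words thus occurred both in promoters of URGs and in the promoter of a gene that was not called, and a match describes letters, not binding.

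*CIITA* (ENSG00000179583, chr16:10866222-10943021, plus strand, protein coding) encodes the coactivator that turns on the other class II genes. Its counts were 13, 3 and 11 in the DMSO samples and 21, 6 and 18 in the mocetinostat samples, which is 1.18, 0.62 and 1.62 CPM against 4.16, 3.72 and 7.46 CPM. Every mocetinostat sample was above every DMSO sample, although the raw counts overlap because the mocetinostat libraries were shallower. Mean *CIITA* rose from 1.14 ± 0.50 CPM to 5.11 ± 2.04 CPM (± SD of 3 samples). On the log2 scale the change was 2.08 with a standard error (SE) of 0.50 (adjusted p = 0.000196, edgeR). The 95% interval of the fold ran from 2.13 to 8.42. With libraries thinned to the smallest total, or with a minimum of 10 counts in each sample, *CIITA* no longer passed the filter and had no test. Of its exonic bases, 10.7% overlap *DEXI* on the opposite strand, and *DEXI* moved the other way, from 35.7 ± 4.50 to 25.6 ± 6.27 CPM (log2 fold change -0.53, adjusted p = 0.0051, edgeR).

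RFX5 and RFXAP are subunits of the RFX complex that holds CIITA at the X box. *RFX5* (chr1:151340640-151347326) had the highest level per length of all members, 10.2 ± 0.70 CPM per kilobase of transcript in DMSO and 12.3 ± 1.94 in mocetinostat (SD, n = 3). In CPM its values were 38.8, 37.1 and 33.9 CPM in DMSO and 48.8, 47.1 and 36.1 CPM in mocetinostat. The lowest mocetinostat sample fell within the DMSO range, and the log2 fold change of 0.27 (SE 0.14, 95% interval -0.01 to 0.56) did not pass the test (adjusted p = 0.0897, edgeR). It passed the p-value threshold in edgeR's test, but not the fold threshold, with scaling to *GAPDH* (0.81, adjusted p = 5.66e-06), with a minimum of 10 counts in each sample (0.35, adjusted p = 0.0278) and without mocetinostat replicate 3 (0.38, adjusted p = 0.0313). *RFXAP* (chr13:36819222-36829104) lay at 6.33, 6.87 and 3.98 CPM in DMSO and at 7.73, 6.20 and 2.07 CPM in mocetinostat, so the conditions overlapped throughout. Its log2 fold change was -0.01 (95% interval -0.74 to 0.72), and its sign was positive with RLE size factors, with library sizes alone, with scaling to *GAPDH* and without DMSO replicate 1, DMSO replicate 2 or mocetinostat replicate 3. Changes of either RFX subunit that lie inside these intervals were not detectable at this depth.

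HLA-DR is the most widely studied class II molecule, with an α chain from *HLA-DRA* (chr6:32439878-32445046) and a β chain from *HLA-DRB1* (chr6:32577902-32589848). *HLA-DRA* had 0, 0 and 0 counts in DMSO and 38, 20 and 18 in mocetinostat, or 7.53, 12.4 and 7.46 CPM. *HLA-DRB1* had 0, 0 and 0 counts in DMSO and 54, 21 and 21 in mocetinostat, or 10.7, 13.0 and 8.70 CPM. Both chains were thus read in all 3 mocetinostat samples and in none of the DMSO samples. Against a floor of 3 counts in each DMSO library, *HLA-DRA* was at least 20.5-fold higher (adjusted p = 6.37e-14, edgeR) and *HLA-DRB1* at least 24.2-fold higher (adjusted p = 1.87e-15, edgeR). The fitted log2 fold changes of 8.54 and 8.82 depend on the prior count that edgeR adds to 0. The annotated transcript of *HLA-DRB1* shared none of its 100-base windows with another gene, and the call was also made with all HLA-DRB rows summed. How well the alleles of the line match the reference sequence, which affects how many HLA reads align, was not tested.

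HLA-DM is not a peptide-presenting molecule but the endosomal chaperone that loads the others. *HLA-DMB* (chr6:32934629-32941028) had 6, 0 and 1 counts in DMSO and 32, 15 and 16 in mocetinostat, or 0.54, 0 and 0.15 CPM against 6.34, 9.30 and 6.63 CPM. *HLA-DMA* (chr6:32948613-32969094) had 9, 3 and 8 counts in DMSO and 21, 5 and 17 in mocetinostat, or 0.81, 0.62 and 1.18 CPM against 4.16, 3.10 and 7.05 CPM. For each chain all mocetinostat samples exceeded all DMSO samples in CPM. Mean *HLA-DMB* rose from 0.23 ± 0.28 to 7.42 ± 1.63 CPM (log2 fold change 4.48, SE 0.59, adjusted p = 4.73e-10, edgeR), and *HLA-DMA* from 0.87 ± 0.28 to 4.77 ± 2.04 CPM (2.41, SE 0.53, adjusted p = 5.01e-05, edgeR). The 95% intervals of the folds were 9.89 to 50.2 and 2.57 to 11.0. Without DMSO replicate 1, which held 6 of the 7 DMSO counts of *HLA-DMB*, its log2 fold change was 5.94. Like *CIITA*, the DM chains no longer passed the filter after thinning or with at least 10 counts in every sample. A readthrough transcript spans both chains and shares 27.3% of the 100-base windows of *HLA-DMB* and 5.03% of those of *HLA-DMA*, and it had 0 counts in all samples. How reads shared between genes were assigned is not given, so these 0 counts do not show whether the readthrough transcript was present.

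HLA-DP is the remaining peptide-presenting molecule among the members, and its chains had the highest class II levels of the DMSO samples. *HLA-DPA1* (chr6:33064569-33080775) had 80, 23 and 42 counts in DMSO and 34, 5 and 10 in mocetinostat, or 7.24, 4.79 and 6.19 CPM against 6.74, 3.10 and 4.14 CPM. *HLA-DPB1* (chr6:33075990-33089696) had 170, 73 and 130 counts in DMSO and 80, 24 and 49 in mocetinostat, or 15.4, 15.2 and 19.2 CPM against 15.9, 14.9 and 20.3 CPM. The conditions overlapped for both chains. The log2 fold change was -0.27 (SE 0.35, 95% interval -0.96 to 0.43, adjusted p = 0.514, edgeR) for *HLA-DPA1* and 0.04 (SE 0.21, 95% interval -0.38 to 0.45, adjusted p = 0.889, edgeR) for *HLA-DPB1*. For *HLA-DPB1* the interval allows a fold of 0.77 to 1.37, far below the bounds of the HLA-DR chains. In a single random thinning of all libraries to the smallest total, *HLA-DPB1* had a log2 fold change of 1.22 (adjusted p = 0.0593, edgeR). The draw was not repeated, so how far this value depends on it was not tested. The sign of *HLA-DPB1* was negative without a filter and without DMSO replicate 1, DMSO replicate 2 or mocetinostat replicate 3. That of *HLA-DPA1* was positive with scaling to *GAPDH*.

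*CD74* (chr5:150401637-150412969), the invariant chain that accompanies every new class II molecule, was near the floor. It had 2, 1 and 1 counts in DMSO and 4, 2 and 0 in mocetinostat, or 0.18, 0.21 and 0.15 CPM against 0.79, 1.24 and 0 CPM. The mocetinostat samples lay on both sides of the DMSO samples, and the gene was removed by the filter. The pooled ratio was 3.74, with a 95% interval of 0.89 to 18.0 that covers counting error only, and the fit without a filter gave a log2 fold change of 1.52 (SE 1.47, adjusted p = 0.487, edgeR). A difference in *CD74* was therefore not detectable at this depth.

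**Figure D1:**
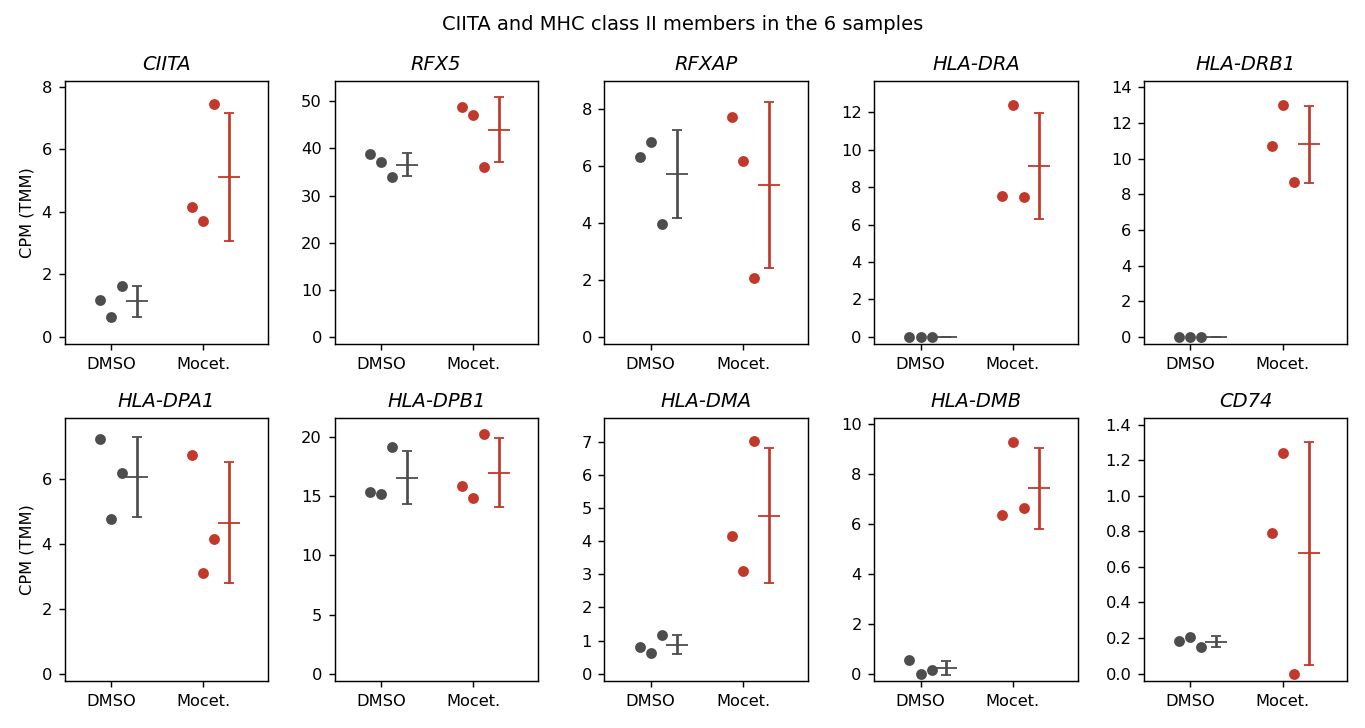
CPM (TMM-scaled, linear axis that differs between panels) of each of the 10 members in the 3 DMSO samples (grey) and the 3 mocetinostat samples (red), one point per sample, with the mean and the SD beside the points. The conditions are separate for *CIITA*, *HLA-DRA*, *HLA-DRB1*, *HLA-DMA* and *HLA-DMB*, and overlap for *RFX5*, *RFXAP*, *HLA-DPA1*, *HLA-DPB1* and *CD74*.

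The remaining class II genes were set beside the members. Of 9 symbols, 7 had a row in the table, 1 passed the filter, and it was a URG, against 20.2% of all genes tested. This was *HLA-DQB1* (chr6:32659467-32668383), the β chain of HLA-DQ, with 3, 0 and 3 counts in DMSO and 148, 39 and 67 in mocetinostat. It passed the filter only through its mocetinostat samples, so the count of tested genes called depends on the outcome. At 29.3, 24.2 and 27.8 CPM it was uniformly present in the treated samples, and the log2 fold change was 6.58 (SE 0.39, adjusted p = 1.43e-24, edgeR), with a pooled ratio of 106 and a counting interval of 47.9 to 291. Its partner *HLA-DQA1* had 2, 0 and 3 counts in DMSO and 8, 5 and 4 in mocetinostat, a pooled ratio of 8.49 (3.01 to 29.4). Without a filter, *HLA-DQA1* (log2 fold change 2.82, adjusted p = 0.0258), *HLA-DRB5* (at least 3.19-fold higher, adjusted p = 0.002) and *HLA-DOA*, a modulator of HLA-DM (3.25, adjusted p = 0.0173), were also URGs in edgeR's test. In that fit 4 of the 7 were URGs, against 7.9% of the 40504 genes with any count. *HLA-DQA2*, *HLA-DQB2* and *HLA-DOB* had at most 5 counts in any sample and were not called. Of 6 class II pseudogenes, 3 had 0 counts in every sample and 0 passed the filter.

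Levels between genes can be compared only per length, here as CPM per kilobase of the canonical transcript. In the mocetinostat samples *HLA-DQB1* stood highest among the class II chains at 16.9 ± 1.65, followed by *HLA-DRB1* at 8.84 ± 1.76 and *HLA-DRA* at 7.39 ± 2.29, which lay within each other's spread. *HLA-DMB* at 5.51 ± 1.21, *HLA-DMA* at 4.36 ± 1.87 and *HLA-DPB1* at 4.26 ± 0.73 did not differ beyond their spread, and *HLA-DPA1* followed at 2.74 ± 1.10. *HLA-DQA1* had 1.34 ± 0.54, well below its partner, whereas the DR chains and the DM chains were each within the spread of their partner. *CD74* was near the floor at 0.41 ± 0.38 (SD, n = 3 throughout). In the DMSO samples the order was different: *HLA-DPB1* at 4.15 ± 0.56 and *HLA-DPA1* at 3.56 ± 0.72 were highest, *HLA-DMA* had 0.80 ± 0.26, *HLA-DMB* 0.17 ± 0.21, and the DR chains 0. The order in mocetinostat depends on the length used. Per kilobase of all annotated exonic bases, *HLA-DRA* had a mean of 7.34 and *HLA-DQB1* 5.54. On that length *HLA-DRB1* had 3.51, close to *HLA-DPB1* at 3.26 and below its partner *HLA-DRA*.

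**Figure D2:**
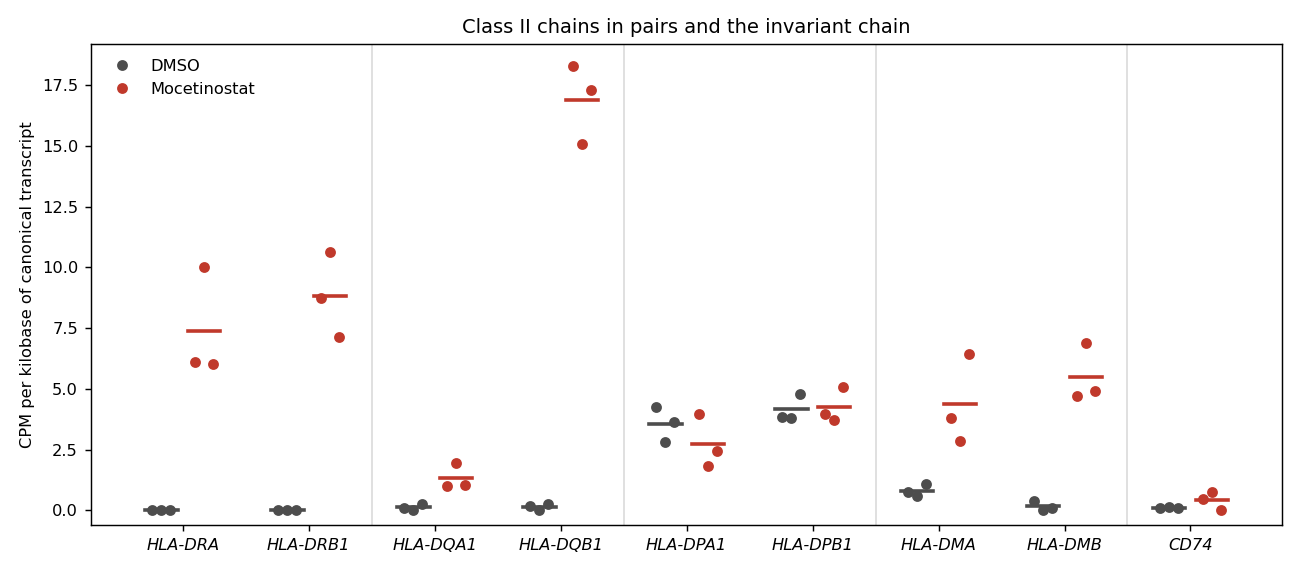
CPM per kilobase of canonical transcript (linear axis from 0) of the class II chains set in α and β pairs and of *CD74*, one point per sample, with a bar at the mean of 3 samples. In DMSO (grey) the HLA-DP pair is the highest, and in mocetinostat (red) *HLA-DQB1* and the HLA-DR pair lie above it while *CD74* stays near 0. The order in mocetinostat differs per kilobase of all annotated exonic bases.

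The class II genes lie together on the short arm of chromosome 6, and the genes between and around them that are not class II genes offer a comparison by position. Of 14 such neighbours 11 were tested, 2 were URGs and 0 were DRGs, against 20.2% and 8.18% of all genes tested. The median of the neighbours' log2 fold changes was -0.19. The URGs were *PSMB9*, an immunoproteasome subunit (1.14, SE 0.20, adjusted p = 1.37e-06, edgeR), and *COL11A2*, a cartilage collagen chain (1.54, SE 0.33, adjusted p = 3.15e-05, edgeR). *BRD2*, next to *HLA-DMA* and overlapping 2.18% of its exonic bases on the opposite strand, moved from 327 ± 24.6 to 235 ± 19.9 CPM (-0.47, adjusted p = 1.25e-06, edgeR), opposite in sign to *HLA-DMA*. *RXRB* had the lowest value, -0.90. Around *CIITA* on chromosome 16, 7 of 8 neighbours were tested and 1 was a URG, *ATF7IP2* (1.31, adjusted p = 6.15e-08, edgeR), with a median of 0.14 and the lowest value, -0.81, in *NUBP1*. With *GAPDH* scaling 3 of these 7 were URGs, against 4425 of all 13966 genes tested. Under glmTreat, which tests against a log2 fold change of 1, *PSMB9*, *COL11A2* and *ATF7IP2* were not called, *PSMB9* also lost its call without a filter, and *RXRB* and *NUBP1* became DRGs without a filter. There *BTNL2*, next to *HLA-DRA*, became a URG, with 0 counts in each DMSO sample and 7, 0 and 1 in mocetinostat (adjusted p = 0.0489, edgeR).

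**Figure D3:**
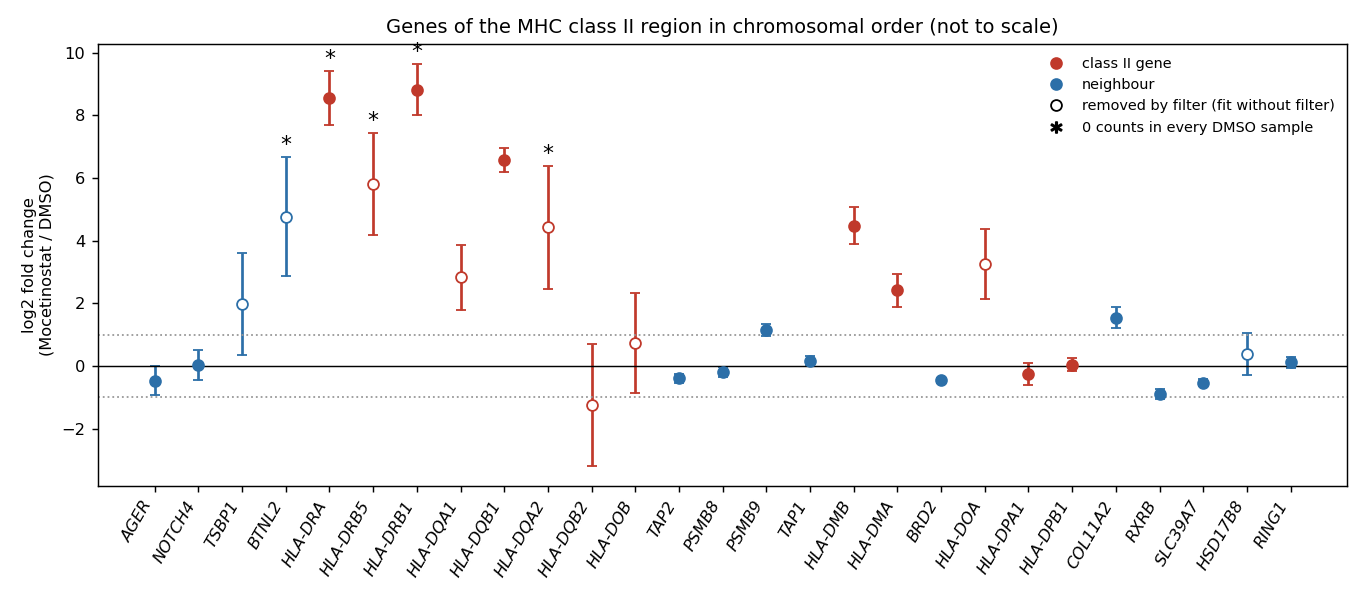
Log2 fold change (mocetinostat over DMSO, with SE) of class II genes (red) and neighbours (blue) in their order along chromosome 6, not to scale, where open points are genes removed by the filter and shown from the fit without it, and asterisks mark genes with 0 counts in every DMSO sample, whose size depends on the prior count. The class II genes that were called stand above the dotted line at 1, and *HLA-DPA1* and *HLA-DPB1* lie between the dotted lines at -1 and 1, as do most neighbours.

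The genes of the other proteins of the class II promoter complex (the enhanceosome) were slightly lower in mocetinostat with TMM scaling, a direction that *NFYA* and *CREB1* did not keep with scaling to *GAPDH*. All 5, *RFXANK* (the third RFX subunit), *NFYA*, *NFYB* and *NFYC* (the NF-Y subunits) and *CREB1*, had an adjusted p-value under 0.05 with a lower level in mocetinostat, as did 31.4% of all genes tested, and 0 of them passed the fold threshold. Their log2 fold changes were -0.58, -0.46, -0.60, -0.60 and -0.33 (adjusted p = 0.00481, 0.000259, 0.00161, 0.000328 and 0.0115, edgeR). In CPM, *NFYA* fell from 99.0 ± 2.97 to 71.3 ± 6.55 and *RFXANK* from 27.6 ± 0.83 to 19.1 ± 3.89, and every mocetinostat sample of the 5 genes lay below every DMSO sample. Without mocetinostat replicate 1 the adjusted p-values were 0.0581 for *RFXANK*, 0.0892 for *NFYB* and 0.0547 for *CREB1*. These small shifts depend on the scaling: *GAPDH* itself had a log2 fold change of -0.53 (adjusted p = 2.58e-12, edgeR), and with each library scaled to it the median of all genes moved to 0.53, none of the 5 passed, and the signs of *NFYA* and *CREB1* became positive.

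Interferon-γ is the classical inducer of *CIITA*, acting through its receptor, JAK kinases and IRF1. *IFNG* itself had 1 count in the 6 samples together. Of the 11 genes of this route 10 were tested, 1 was a URG and 2 were DRGs, against 20.2% and 8.18% of all genes tested. The log2 fold changes of the 10 had a median of 0.17. The URG was *PRDM1*, which encodes the repressor Blimp-1 known to silence *CIITA* in plasma cells, with 8, 8 and 5 counts in DMSO and 34, 12 and 18 in mocetinostat (2.87, SE 0.48, adjusted p = 3.13e-07, edgeR). *PRDM1* passed the filter only through its mocetinostat samples. The DRGs were *IFNGR2*, a receptor chain (-1.10, adjusted p = 4.69e-13, edgeR), and *USF1*, a factor of the interferon-responsive *CIITA* promoter (-1.04, adjusted p = 7.13e-08, edgeR). At an adjusted p-value under 0.05, whatever the fold, 5 of the 10 were higher, against 32.9% of all genes tested, among them *IFNGR1* (0.83), *IRF1* (0.69) and *JAK1* (0.23), which did not reach the fold threshold. At the same p-value 3 of the 10 were lower, the DRGs and *JAK2* (-0.54), against 31.4% of all genes tested. Without a filter the value of *JAK1* was -0.02 (adjusted p = 0.867, edgeR). With *GAPDH* scaling 4 of the 10 were URGs and 0 were DRGs, against 4425 and 284 of all 13966 genes tested. Neither *IFNGR2* nor *USF1* was called under glmTreat. *USF1* also lost its call without DMSO replicate 3 (-0.998) or mocetinostat replicate 2 (-0.98).

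CIITA works through histone acetyltransferases and is opposed by deacetylase complexes, so these partners were listed as well. Of 10 genes tested, with a median of -0.13, 0 were URGs and 2 were DRGs, against 20.2% and 8.18% of all genes tested. *CREBBP*, the acetyltransferase CBP, went from 357 ± 26.9 to 136 ± 3.03 CPM (-1.40, SE 0.09, adjusted p = 9.96e-24, edgeR), and its paralog *EP300* from 229 ± 19.2 to 115 ± 13.9 CPM (-1.003, SE 0.10, adjusted p = 5.49e-15, edgeR). *EP300* lay at the fold threshold and dropped under it without DMSO replicate 2 (-0.98), mocetinostat replicate 1 (-0.97) or mocetinostat replicate 3 (-0.96), and in 10 alternatives in all, with *GAPDH* scaling giving -0.47. *CREBBP* dropped under it with *GAPDH* scaling (-0.87). The deacetylase *HDAC3* had the highest value of the list (0.44, adjusted p = 0.0013, edgeR).

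Endosomal proteases cut the invariant chain and the antigens. All 9 genes of this list were tested, with a median of 1.00, and 5 were URGs and 0 were DRGs, against 20.2% and 8.18% of all genes tested. *CTSV* (cathepsin V) rose from 15.9 ± 0.13 to 65.7 ± 6.95 CPM (2.07, SE 0.15, adjusted p = 1.93e-20, edgeR), *LGMN* (legumain) from 29.4 ± 3.83 to 89.5 ± 14.2 CPM (3.03-fold, adjusted p = 1.41e-17, edgeR), and *IFI30*, the endosomal thiol reductase GILT, from 0.80 ± 0.21 to 3.33 ± 0.73 CPM (2.15, SE 0.57, adjusted p = 0.000712, edgeR). *IFI30* passed the filter only through its mocetinostat samples. *CTSL* (1.06) and *CTSB* (1.00) lay close to the threshold. Both lost their call under glmTreat, without a filter (which left 3 URGs) and without DMSO replicate 1 (0.95 for each), and *CTSB* also under DESeq2 (0.97) and without DMSO replicate 3 (0.96), mocetinostat replicate 2 (0.97) or mocetinostat replicate 3 (0.98). *CTSS* (cathepsin S), the protease that completes invariant chain cleavage in professional antigen-presenting cells, had the lowest value (-0.47, SE 0.48, adjusted p = 0.405, edgeR), with 28, 21 and 26 counts in DMSO and 18, 2 and 4 in mocetinostat.

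A surface class II molecule meets T cells together with co-stimulatory and adhesion proteins and is removed by the ubiquitin ligases MARCH1 and MARCH8. Of 9 such genes 6 were tested, with a median of 1.19, and 3 were URGs and 0 were DRGs, against 20.2% and 8.18% of all genes tested. *CD40*, a co-stimulatory receptor, rose from 3.44 ± 1.36 to 19.8 ± 2.31 CPM (2.62, SE 0.28, adjusted p = 7.07e-13, edgeR), *CD274*, which encodes the inhibitory ligand PD-L1, from 7.38 ± 1.76 to 38.9 ± 3.12 CPM (2.33, SE 0.20, adjusted p = 7.12e-17, edgeR), and *ICAM1*, an adhesion molecule, from 22.8 ± 2.32 to 84.0 ± 4.51 CPM (1.89, SE 0.13, adjusted p = 6.76e-21, edgeR). *CD80* and *CD86*, the ligands of CD28, had at most 4 counts in any sample. *MARCH8* had the lowest value (-0.70, adjusted p = 0.000184, edgeR), whereas *MARCH1*, removed by the filter, had 0 counts in DMSO and 6, 2 and 5 in mocetinostat, at least 3.36-fold higher.

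**Figure D4:**
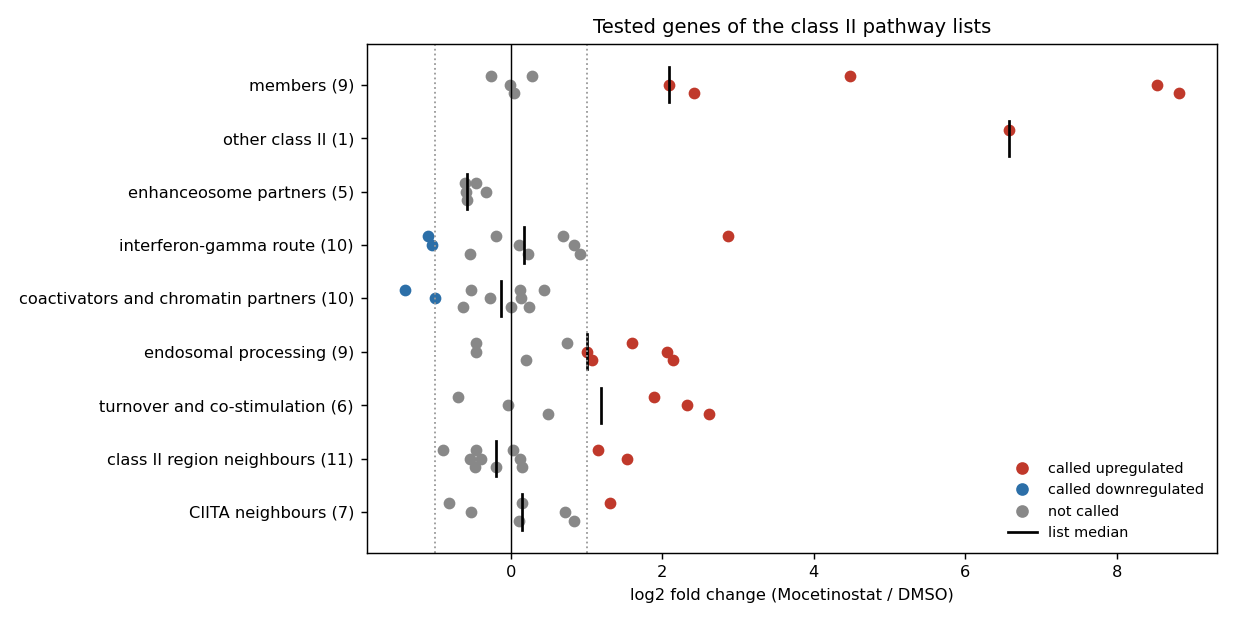
Log2 fold change (mocetinostat over DMSO) of every tested gene in the members and in 8 lists of related genes, with the number tested in parentheses, a bar at each median and dotted lines at -1 and 1. Among the genes plotted, those above 3 are members and *HLA-DQB1*; the endosomal and co-stimulation lists have medians near 1 and the 5 enhanceosome partners lie below 0, where *NFYA* and *CREB1* do not with *GAPDH* scaling.

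Over the 6 samples, the genes outside these lists whose log2(CPM + 1) followed the mean of the 9 tested members most closely were *NANOS1*, *NCOA3*, *PPP2R2B*, *RAB3B* and *NUP210* (Pearson r from 0.9991 to 0.9996). The 6 points form 2 clusters by condition, so this is a description of genes that differ between the conditions with little spread within them. *NCOA3*, a nuclear receptor coactivator, had 237 CPM in DMSO and 499 CPM in mocetinostat, and *NUP210*, a nuclear pore protein, 15.02 and 66.5 CPM.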

How the data were processed

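The 6 TC28a2 cultures were 3 per condition, from 3 independent experiments per the study's figure legend. Their total RNA was fragmented, depleted of ribosomal sequences with CRISPR reagents and sequenced as single reads of 100 bases. The authors aligned the reads to GRCh38 (Ensembl build 98) with STAR 2.6.1d and assigned them to genes with featureCounts 1.6.4; strand and multi-mapping settings are not given in the sources used here. The deposited table holds raw counts per gene, not normalized. The authors' own test was DESeq2 1.20.0.

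Here the counts were fitted with edgeR 4.0.16 (R 4.3.3): filterByExpr at its defaults, TMM factors, quasi-likelihood test of treatment over all 6 samples, and Benjamini-Hochberg adjustment over all 13966 genes tested. The biological coefficient of variation was 9.30%. CPM use TMM-scaled library sizes. The SE is the absolute log2 fold change divided by the square root of the quasi-likelihood F. In 95% intervals of ratios, and in floors of 3 counts per library, only counting error is covered. An exact two-sided permutation test of 3 against 3 samples cannot give a p-value below 0.1, so none was used for single genes. Within conditions, pairs of samples differed by more than sampling noise (chi-square per degree of freedom 1.93 to 7.95), so all were counted as separate samples.

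The named genes are all 10 members, the other class II genes and the promoter complex; of each other list, the called genes and those with the highest and lowest fold change; *GAPDH*; and the 5 genes most alike. Other genes with values (*SOX9*, *PTPRC*, *CD3E*, *SPI1*, *DEXI*, *BRD2*, *IFNGR1*, *IRF1*, *JAK1*, *JAK2*, *BTNL2*, *FLT3*, *IFNG*, *CD80*, *CD86* and *MARCH1*) were added after their values were seen. The values of 1 gene of the interferon-γ list are not reported here. The members and lists were chosen with earlier results of these data known. Positions come from GENCODE release 44 (GRCh38), in which 99.5% of the gene identifiers were found. The test was checked on simulated data. DESeq2 1.42.0 and the other alternatives are given in the closing section.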

Additional observations from a re-analysis of the deposited data

How the results depend on the processing

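The 5 members called upregulated were the same 5 under DESeq2, RLE factors, library sizes alone, *GAPDH* scaling, no filter, glmTreat, rows of a symbol summed, HLA-DRB rows summed and each of 6 fits without 1 sample (5 in each). The exceptions were 2 settings that tested fewer members: with at least 10 counts in every sample, which leaves out genes with 0 counts in DMSO, 2 were tested and 0 were called, and with libraries thinned to the smallest total 5 were tested and 2, *HLA-DRA* and *HLA-DRB1*, were called. The thinning was a single random draw. Of the other class II genes, 1 was called, against 4 under DESeq2, 4 without a filter and 0 with at least 10 counts. Over all genes, 2827 URGs and 1142 DRGs became 4425 and 284 with *GAPDH* scaling, 1620 and 704 with at least 10 counts, 1873 URGs after thinning, 2120 DRGs without a filter and 465 DRGs under glmTreat; without 1 sample they ranged from 2842 to 3216 and from 1173 to 1267. Of the genes named by rule, those that reversed sign were *RFX5* after thinning (-0.0930), *RFXAP* with RLE factors (0.0066), library sizes (0.0020) and *GAPDH* scaling (0.53), *HLA-DPB1* without a filter (-0.21), and with *GAPDH* scaling *HLA-DPA1* (0.28), *NFYA* (0.0746), *CREB1* (0.20) and *CTSS* (0.0715). Without 1 sample *RFXAP* ranged from -0.59 to 0.33 and *HLA-DPB1* from -0.11 to 0.12. No pairing by replicate number was seen: deviations from the condition means correlated at 0.0131, 0.0166 and -0.0216 between samples with the same number. Such correlations cannot show whether samples with the same number shared an experiment, which the labels do not give. With the replicate number as a block, 2798 genes were URGs, 1133 were DRGs and the same 5 members were called, while *EP300* dropped under the fold threshold (-0.99). The causes of these differences were not tested beyond the number of genes each setting could test.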
